A study of Mus musculus with 12 samples.

Results

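CD200-high capillary cells and cells labelled sinusoidal, both sorted from mouse bone marrow, were compared across all genes. The comparison rests on 6 of the 12 libraries of the study, chosen by the population named in each library's title, 3 for each population. The gate of the CD200-high cells was CD45-, CD31+, EMCN-, Sca1+ and CD200Hi, and that of the cells labelled sinusoidal was CD45-, Sca1+ and CD31+. As written, the second gate contains the first. All mice were untreated B6 animals, and marrow was released by crushing tibia, femur and iliac bone. The labels call the libraries biological triplicates and give 6 mice in all. Age, sex and any pooling are not given in the sources used here. Column headers number the libraries of each population mouse1 to mouse3, without stating whether a number marks the same mouse across populations. P-values measure the spread between these libraries, part of which may be technical. The other libraries, 3 of type H vessels (EMCN+, Sca1+, CD31+ and CD45-) and 3 of arterial cells (CD200-, Sca1+, CD31+ and CD45-), share the estimate of spread and give levels for orientation.

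Blood enters bone marrow through arterioles, passes into capillaries and drains into sinusoids, wide thin-walled vessels through which new blood cells leave. In mouse marrow, arterial endothelium is known for high Sca1 and sinusoidal endothelium for low Sca1, for the scavenger receptors stabilin-1 and stabilin-2 and for VEGF receptor 3. CD200 is a surface glycoprotein whose receptor on myeloid cells restrains their activation. B cell precursors mature in the same marrow, and megakaryocytes sit against sinusoids and shed platelets into them.

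Levels are log2 CPM, the base 2 logarithm of reads per 1e6 with 0.5 read added, as the authors deposited them. Differences are log2 differences, CD200-high minus labelled sinusoidal, ± their standard error. A gene rose or fell in CD200-high libraries when limma, fitted to all 12 libraries, gave a Benjamini-Hochberg adjusted p under 0.05 over the 17086 genes tested. For each list given with no member in a direction, an unadjusted p under 0.05 and limma voom gave none there either, unless stated. Brackets after a count give the count with the named library left out, where that moved it by over 1.5 times. The reads listed came to 12.7, 15.8 and 7.33 M (M, 1e6 reads) in the CD200-high libraries, against 16.6, 21.6 and 18.4 M in those labelled sinusoidal, and 14535 to 16126 genes had a read. Libraries of 1 population differed with 56.3 to 94.8 times the variance that counting alone gives for the same RNA (chi-square per degree of freedom). On a principal component analysis of all 12 libraries the first component, with 30.6% of the variance, placed the 3 CD200-high libraries on one side and the 3 labelled sinusoidal on the other. Arterial libraries lay on the side of those labelled sinusoidal, and type H libraries lay farther out than the CD200-high ones.

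The sorting antigens set the populations apart, and not all in the direction of the labels. Cd200, part of the gate, had 9.81, 9.83 and 9.80 log2 CPM in the CD200-high libraries, against 5.38, 5.39 and 5.51 in those labelled sinusoidal (difference 4.39 ± 0.16, limma adjusted p = 1.4e-08). The CD200Hi gate selects for this difference, so it is no independent result. The gate of the cells labelled sinusoidal names no CD200. Arterial libraries, gated CD200-, averaged 7.68 ± 0.11 log2 CPM of Cd200 (SD, n = 3). Ly6a, which encodes Sca1, had 9.84, 10.17 and 10.54 log2 CPM in the CD200-high libraries, against 3.67, 3.61 and 4.87 in those labelled sinusoidal (difference 6.13 ± 0.32, limma adjusted p = 2.2e-07). The 2 populations share a Sca1+ gate, yet no library labelled sinusoidal came within 4 log2 units of any CD200-high library for Ly6a. Emcn, which encodes endomucin, had 7.84, 8.25 and 8.68 log2 CPM in the CD200-high libraries, against 2.22, 2.82 and 1.21 in those labelled sinusoidal (difference 6.17 ± 0.37, limma adjusted p = 7.5e-07), so the population gated as EMCN- held the higher Emcn RNA. Type H libraries averaged 9.02 ± 0.03 log2 CPM of Emcn and arterial ones 6.56 ± 0.45, against 2.08 ± 0.81 for those labelled sinusoidal (SD, n = 3). Pecam1, the CD31 transcript, had 7.92, 8.22 and 8.99 log2 CPM in the CD200-high libraries, against 6.44, 6.02 and 6.20 in those labelled sinusoidal (difference 2.15 ± 0.24, limma adjusted p = 5.4e-05). Ptprc, the CD45 transcript, had 5.48, 4.69 and 5.98 log2 CPM in the CD200-high libraries, against 6.86, 6.25 and 6.53 in those labelled sinusoidal (difference -1.16 ± 0.36, limma adjusted p = 0.033), low in neither population although both gates exclude CD45. The call on Ptprc was lost without CD200-high replicate 1 or 2 or sinusoidal replicate 1 or 3 (adjusted p = 0.059 to 0.12). The plot of antigens and vessel genes shows these values library by library.

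**Figure D1:**
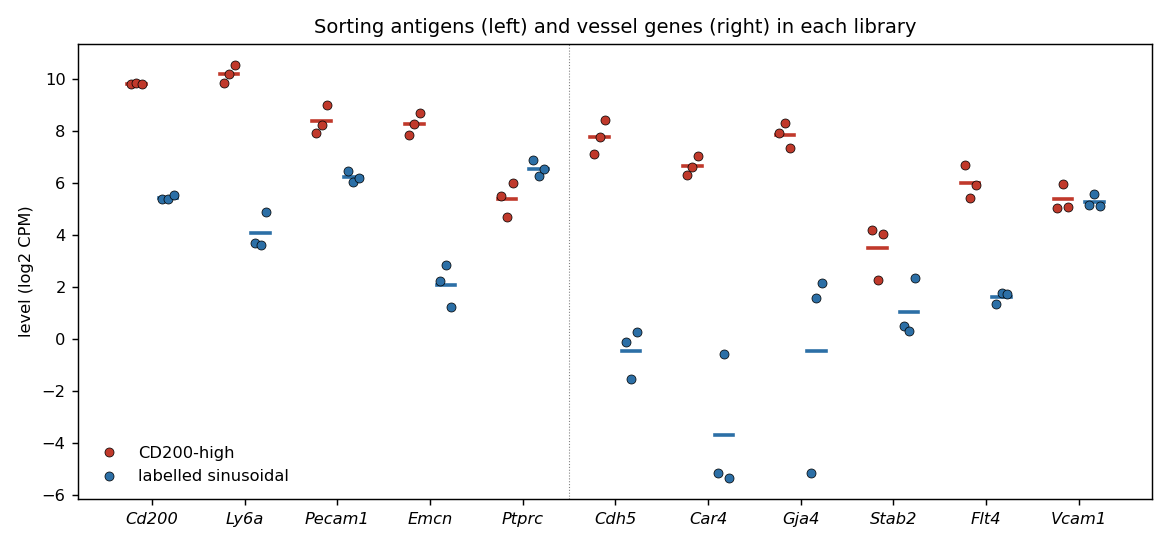
Level (log2 CPM) of the 5 sorting antigens and 6 vessel genes in each library, CD200-high in red and labelled sinusoidal in blue; each point is 1 of 3 libraries and each bar a mean. For Cd200, Ly6a, Pecam1, Emcn, Cdh5, Car4, Gja4 and Flt4 the 3 CD200-high points lie above the 3 labelled sinusoidal, while Stab2 and Vcam1 overlap.

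Markers known from marrow sinusoids were not uniformly higher in the libraries that carry the label sinusoidal, and several were lower there than in CD200-high libraries. Of 15 marrow sinusoid genes measured, 8 rose in CD200-high libraries and 1 fell (0 without sinusoidal replicate 2 or 3, 2 without CD200-high replicate 3), with a median difference of 1.62, which turned to -3.22 when the pan-endothelial genes were scaled to 1 median in every library. Stab2, the stabilin-2 scavenger receptor, had 4.18, 2.25 and 4.04 log2 CPM in the CD200-high libraries, against 0.51, 0.30 and 2.32 in those labelled sinusoidal (difference 2.45 ± 0.66, limma adjusted p = 0.016), and the lowest CD200-high library lay just under the highest labelled sinusoidal. The call on Stab2 was lost without CD200-high replicate 1 or 3 or sinusoidal replicate 1 or 2 (adjusted p = 0.052 to 0.063). Its mean in type H libraries was 9.37 ± 0.23 log2 CPM (SD, n = 3), far above both. Stab1 averaged 5.41 ± 0.29 log2 CPM in CD200-high libraries, 8.36 ± 0.15 in type H and 0.40 ± 1.03 in those labelled sinusoidal. Flt4, VEGF receptor 3, averaged 6.01 ± 0.63 log2 CPM in CD200-high libraries and 9.76 ± 0.16 in type H, against 1.62 ± 0.24 in those labelled sinusoidal. Vcam1, an adhesion molecule of sinusoids and of stromal cells, showed a difference of 0.08 that did not pass (limma adjusted p = 0.86). Lyve1, a hyaluronan receptor, was the 1 member that fell, with reads in each library labelled sinusoidal and none in CD200-high. The call on Lyve1 was lost without sinusoidal replicate 2 or 3 (adjusted p = 0.056 to 0.064). The 3 libraries are called labelled sinusoidal throughout.

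Of the 17086 genes, 2407 rose in CD200-high libraries, a share of 14.1%, and 2495 fell, a share of 14.6%, so that 28.7% passed in all. Values of the 2 populations did not overlap for 46.5% of the genes. Every count of list members in the text is to be read beside the 14.1% and 14.6%. Every statement that a gene did not overlap is to be read beside the 46.5%. The median difference over all genes was -0.22, and 604 of the genes that rose and 765 of those that fell differed by more than 5. Leaving out any 1 library labelled sinusoidal lowered the falls to between 1630 and 1652 and the rises to between 1869 and 1987. Scaling each library to its listed reads, without the authors' factor, gave 1997 rises and 3629 falls around a median of -0.53. Making the median of the 20 pan-endothelial genes equal in every library shifted the median over all genes to -5.06 and left 159 rises beside 14335 falls, so every rise of under about 4.84 reads as a fall on that scale. The scatter of all genes shows how far the extremes lie from the diagonal.

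**Figure D2:**
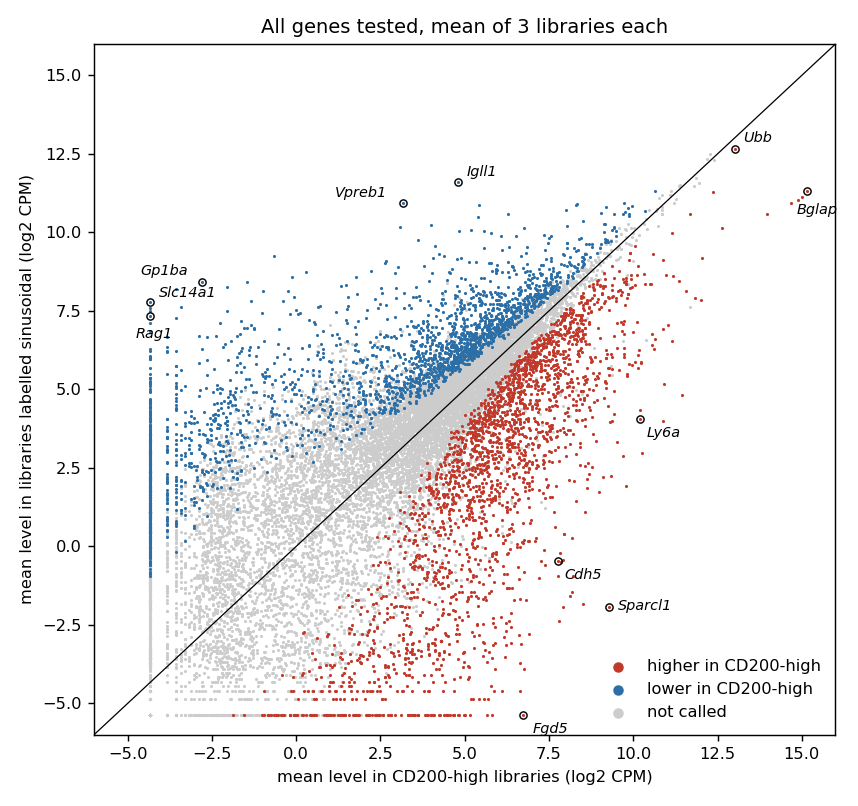
Mean level (log2 CPM, 3 libraries) of each of the 17086 genes tested in CD200-high libraries (x axis) and in libraries labelled sinusoidal (y axis); red points passed as higher in CD200-high, blue points as lower, and the line marks equal levels. Fgd5 and Slc14a1 lie at opposite edges with no reads in 1 population, while Ubb lies near the line.

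The 12 largest rises included genes known from endothelium that had few or no reads in the libraries labelled sinusoidal. Fgd5, an exchange factor of endothelial cells, had 971, 1817 and 731 reads in the CD200-high libraries, against 0, 0 and 0 reads in those labelled sinusoidal, and was at least 745-fold above a floor of 3 reads per library. Ednrb, an endothelin receptor, had 755, 1260 and 1108 reads in the CD200-high libraries, against 0, 2 and 0 reads in those labelled sinusoidal, a ratio of 3080 with a counting interval of 853 to 25500. Sparcl1, a matrix glycoprotein, had 6079, 7048 and 5830 reads in the CD200-high libraries, against 0, 51 and 6 reads in those labelled sinusoidal (difference 11.19 ± 1.09, limma adjusted p = 2.2e-05). Ramp3, a partner of the adrenomedullin receptor, had 465, 1381 and 527 reads in the CD200-high libraries, against 0, 0 and 2 reads in those labelled sinusoidal, a ratio of 2340 with a counting interval of 649 to 19300. Gja5, the arterial gap junction protein connexin 40, had 417, 966 and 355 reads in the CD200-high libraries, against 1, 0 and 0 reads in those labelled sinusoidal, a ratio of 3430 with a counting interval of 616 to 136000. Prg4, lubricin of joint and bone surfaces, was less even, with 2591, 2310 and 226 reads in the CD200-high libraries, against 0, 10 and 0 reads in those labelled sinusoidal (difference 10.68 ± 2.01, limma adjusted p = 0.0021). Fam13c, Wscd1, Fam181b and Ccdc85a had no read in any library labelled sinusoidal and were at least 229, 271, 255 and 384-fold higher in CD200-high libraries. Efr3b and Magix complete the 12 largest rises, with differences of 10.49 and 10.42. Amplified reads are not single molecules, so the bounds and ratio intervals hold counting error and nothing else.

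The 12 largest falls included genes of lymphocyte, platelet and red cell lineages. Slc14a1, a urea transporter known from red cells, had 0, 0 and 0 reads in the CD200-high libraries, against 3033, 7499 and 4290 reads in those labelled sinusoidal, and was at least 734-fold lower in CD200-high libraries. Rag1, the recombinase that cuts antigen receptor genes in lymphocyte precursors, had 0, 0 and 0 reads in the CD200-high libraries, against 4216, 3070 and 2929 reads in those labelled sinusoidal, and was at least 541-fold lower. Il7r, the interleukin-7 receptor on which mouse B cell precursors depend, had 2, 0 and 0 reads in the CD200-high libraries, against 5571, 6027 and 6691 reads in those labelled sinusoidal, a ratio of labelled sinusoidal to CD200-high of 4630 with a counting interval of 1280 to 38200. Slamf7, an adhesion receptor of lymphoid cells, and Gcsam, a B cell signalling protein, had no read in any CD200-high library and were at least 630 and 584-fold lower. Lax1, an adaptor of lymphocyte receptors, was at least 250-fold lower in the same way. Gp1ba, the platelet receptor for von Willebrand factor, had 2, 2 and 0 reads in the CD200-high libraries, against 7942, 6532 and 6907 reads in those labelled sinusoidal (difference -11.21 ± 0.97, limma adjusted p = 9.3e-06). Treml1, a receptor of platelet granules, had 0, 2 and 0 reads in the CD200-high libraries, against 3326, 3476 and 2872 reads in those labelled sinusoidal, a ratio of labelled sinusoidal to CD200-high of 2450 with a counting interval of 678 to 20200. Mfsd2b, the sphingosine-1-phosphate exporter of red cells and platelets, had 0, 3 and 0 reads in the CD200-high libraries, against 3252, 4686 and 4693 reads in those labelled sinusoidal, a ratio of 2130 with a counting interval of 730 to 10300. Gfra2 and Slit1 were at least 448 and 241-fold lower, and Edaradd closes the 12 with a difference of -10.50.

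Genes used by endothelium in general were far higher in CD200-high libraries. Of 20 pan-endothelial genes 18 rose and 1 fell (0 without sinusoidal replicate 1, 2 without CD200-high replicate 3), with a median difference of 5.36. They took 0.384, 0.522 and 0.740% of reads in the CD200-high libraries, against 0.0713, 0.0665 and 0.0686% in those labelled sinusoidal. Cdh5, the adhesion protein VE-cadherin, had 7.11, 7.76 and 8.41 log2 CPM in the CD200-high libraries, against -0.12, -1.54 and 0.26 in those labelled sinusoidal (difference 8.23 ± 0.44, limma adjusted p = 2.5e-07). Kdr, the main VEGF receptor, had 8.75, 9.39 and 9.97 log2 CPM in the CD200-high libraries, against 3.24, 4.12 and 4.64 in those labelled sinusoidal (difference 5.37 ± 0.36, limma adjusted p = 1.5e-06). Tek, the angiopoietin receptor, rose by 5.51 ± 0.43 and Plvap, which forms the diaphragms of fenestrae, by 5.97 ± 0.70. Erg, an ETS factor that endothelium shares with megakaryocytes and blood progenitors, was the 1 gene of the list that fell, with 1.06, 3.15 and 2.02 log2 CPM in the CD200-high libraries, against 4.49, 4.21 and 4.47 in those labelled sinusoidal (difference -2.32 ± 0.61, limma adjusted p = 0.015). For Cdh5 and Kdr every CD200-high library lay above every library labelled sinusoidal, and for Erg every one lay below. The call on Erg was lost without sinusoidal replicate 1 (adjusted p = 0.052). Pecam1, also present on platelets and megakaryocytes, rose by 2.15 ± 0.24, under the median of the list. The cause was not tested. In libraries of sorted pools, fewer cells of a type and less RNA per cell cannot be told apart.

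Capillary genes were higher in CD200-high libraries on the authors' scale. All 17 measured rose, with a median difference of 6.63, and they took 0.730, 0.967 and 1.56% of reads in the CD200-high libraries, against 0.0323, 0.0361 and 0.0334% in those labelled sinusoidal. With equal pan-endothelial medians 12 were higher and 4 lower. Car4, a carbonic anhydrase on the capillary surface, had 857, 1419 and 886 reads in the CD200-high libraries, against 0, 16 and 0 reads in those labelled sinusoidal (difference 10.36 ± 1.72, limma adjusted p = 0.00093). Aqp7, a glycerol and water channel, had 7.25, 7.82 and 8.67 log2 CPM in the CD200-high libraries, against -0.64, 0.30 and -0.97 in those labelled sinusoidal (difference 8.35 ± 0.77, limma adjusted p = 1.5e-05). Gpihbp1, which carries lipoprotein lipase to the capillary surface, had 9.29, 9.93 and 10.14 log2 CPM in the CD200-high libraries, against 1.14, 2.55 and 2.08 in those labelled sinusoidal (difference 7.87 ± 0.31, limma adjusted p = 2.9e-08). None of these 3 genes overlapped between the populations, beside 46.5% of all genes that did not. Cd36, the fatty acid receptor, rose by 6.20 ± 0.36, Fabp4, a fatty acid carrier, by 6.63 ± 0.24, Cav1, the main coat protein of caveolae, by 5.74 ± 0.29 and Aplnr, the apelin receptor, by 7.28 ± 0.23. Car4 and Aqp7 averaged -2.999 ± 3.67 and 2.97 ± 1.88 log2 CPM in type H libraries (SD, n = 3), whereas Gpihbp1 and Aplnr averaged 10.30 ± 0.13 and 10.995 ± 0.20 there. In arterial libraries Car4 and Aqp7 averaged 5.38 ± 0.28 and 7.04 ± 0.05 log2 CPM. Their CD200-high means were 6.65 ± 0.36 and 7.91 ± 0.72, so neither gene was particular to CD200-high libraries.

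Most arterial genes were higher in CD200-high libraries too. Of 19 arterial genes 15 rose and 1 fell (0 without CD200-high replicate 1 or 3 or any 1 library labelled sinusoidal), with a median of 4.64, which turned to -0.20 with equal pan-endothelial medians. Gja4, the gap junction protein connexin 37, had 2605, 4564 and 1103 reads in the CD200-high libraries, against 0, 72 and 91 reads in those labelled sinusoidal (difference 8.34 ± 2.36, limma adjusted p = 0.021). Efnb2, the arterial ephrin ligand, had 529, 902 and 479 reads in the CD200-high libraries, against 3, 0 and 1 reads in those labelled sinusoidal (difference 9.83 ± 0.84, limma adjusted p = 8.3e-06). Sox17, a factor of arterial fate, had 313, 106 and 688 reads in the CD200-high libraries, against 0, 0 and 0 reads in those labelled sinusoidal, which puts it at least 317-fold higher. Neither Gja4 nor Efnb2 overlapped, beside 46.5% of all genes that did not, although Gja4 varied widely among the libraries labelled sinusoidal. The call on Gja4 was lost without CD200-high replicate 1 or 2 or sinusoidal replicate 1 (adjusted p = 0.051 to 0.081). Of 11 venous or inflamed endothelial genes 6 rose and 2 fell. Nr2f2, the factor of venous fate, rose by 2.61 ± 0.70, and Ackr1, the chemokine-binding receptor of venules, by 3.03 ± 0.61. Selp, P-selectin of endothelium and platelets, fell, with -1.63, 0.99 and 3.42 log2 CPM in the CD200-high libraries, against 4.87, 4.22 and 4.98 in those labelled sinusoidal (difference -3.76 ± 0.995, limma adjusted p = 0.015). The 3 CD200-high libraries were uneven for Selp but all lay below the others. Without CD200-high replicate 1 the Selp difference was -2.49 (adjusted p = 0.032). Vwf, another product of endothelium and megakaryocytes, averaged 1.54 ± 4.60 log2 CPM in CD200-high libraries and 6.49 ± 0.25 in those labelled sinusoidal, a difference of -4.95 ± 2.06 that did not pass (limma adjusted p = 0.094). Without CD200-high replicate 3, the lowest for Vwf, the difference was -2.30 (adjusted p = 0.3), and Vwf passed by voom (adjusted p = 0.031) and with a pseudocount of 1 (adjusted p = 0.013) or 10 (adjusted p = 0.00055). Of 7 lymphatic genes 2 rose (1 without any 1 CD200-high library or sinusoidal replicate 2) and 3 fell (1 without sinusoidal replicate 3). The shares over all genes were 14.1% and 14.6%. Prox1, the factor of lymphatic fate, differed by 0.08 ± 2.04 and did not pass, and Mmrn1, also stored in platelets, fell by 3.37 on the log2 scale.

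Junction and basement membrane genes were higher in CD200-high libraries with few exceptions on the authors' scale. Of 12 junction genes 11 rose and none fell, with a median of 5.20. With equal pan-endothelial medians the junction median was 0.36, with 5 genes higher and 4 lower. Cldn5, the tight junction claudin of endothelium, had 8.52, 8.15 and 9.03 log2 CPM in the CD200-high libraries, against 1.87, 1.76 and 4.05 in those labelled sinusoidal (difference 6.01 ± 0.50, limma adjusted p = 7e-06). Jam2, a junctional adhesion molecule, rose by 7.08 ± 0.46 and Tjp1, the scaffold ZO-1, by 6.57 ± 0.67. Of 17 genes of tip cells or basement membrane 15 rose and none fell, with a median of 5.10. With equal pan-endothelial medians that median was 0.26, with 3 genes higher and 4 lower. Col4a1 and Col4a2, the collagen chains of vascular basement membrane, rose by 5.86 ± 0.20 and 6.82 ± 0.46. Angpt2, a ligand of Tek made by endothelium, had 5.54, 5.59 and 4.27 log2 CPM in the CD200-high libraries, against -1.47, 1.17 and -0.71 in those labelled sinusoidal (difference 5.47 ± 0.71, limma adjusted p = 0.00017). Cldn5 and Angpt2 did not overlap between the populations, beside 46.5% of all genes that did not. Of 18 integrin and laminin genes 10 rose and 2 fell (1 without any 1 library labelled sinusoidal), and the median of 1.79 turned to -3.05 with equal pan-endothelial medians. Lama5, a laminin chain of vessel walls, rose by 8.32 ± 1.26. The falls were Itga4, an integrin chain of blood cells, with 260, 0 and 199 reads in the CD200-high libraries, against 3753, 4987 and 3910 reads in those labelled sinusoidal (difference -6.11 ± 1.92, limma adjusted p = 0.034), and Itgb3, the platelet integrin chain, with 4.81, 4.90 and 2.47 log2 CPM in the CD200-high libraries, against 9.51, 9.03 and 9.02 in those labelled sinusoidal (difference -5.13 ± 0.64, limma adjusted p = 0.00013). The call on Itga4 was lost without any 1 library labelled sinusoidal (adjusted p = 0.079 to 0.081), and without CD200-high replicate 2 its difference was -2.91 (adjusted p = 0.00071).

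Transcription factors known from endothelium moved in both directions. Of 26 listed 14 rose and 5 fell, with a median of 2.47 that turned to -2.37 with equal pan-endothelial medians. The falls were Erg, Foxo1, Foxp1, Hhex and Lyl1, the last 4 named here after their values were seen. The call on Foxo1 was lost without CD200-high replicate 1 or sinusoidal replicate 2 or 3 (adjusted p = 0.076 to 0.088). Sox7, a partner of Sox17 and Sox18 in vessel formation, had 2330, 2531 and 1954 reads in the CD200-high libraries, against 52, 0 and 2 reads in those labelled sinusoidal (difference 10.17 ± 1.29, limma adjusted p = 0.00014). Sox18 rose by 6.03 ± 0.53, and Epas1, the oxygen-sensing factor HIF-2alpha, by 5.24 ± 0.28. Tcf15, known from capillary endothelium of mouse heart and muscle, had 122, 318 and 468 reads in the CD200-high libraries, against 0, 0 and 0 reads in those labelled sinusoidal, which puts it at least 236-fold higher. The Tcf15 mean in arterial libraries was 4.53 ± 0.37 log2 CPM, beside 4.69 ± 1.32 in CD200-high ones (SD, n = 3 each). Neither Sox7 nor Tcf15 overlapped, beside 46.5% of all genes that did not. Klf2 and Klf4, factors induced by blood flow, rose by 3.51 ± 0.53 and 2.98 ± 0.38. Ets1, used by lymphocytes as well, showed 8.87, 9.07 and 8.95 log2 CPM in the CD200-high libraries, against 9.20, 9.56 and 9.24 in those labelled sinusoidal, a difference of -0.37 ± 0.18 that did not pass (limma adjusted p = 0.14).

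Signalling genes of vessels that passed were mostly higher in CD200-high libraries. Among 9 VEGF genes 6 rose, Kdr, Flt1, Flt4, Nrp1 and Nrp2, which are receptors or coreceptors, and the ligand Vegfc, and the median of 3.98 turned to -0.86 with equal pan-endothelial medians. Flt1, the decoy receptor that binds VEGF tightly, had 2759, 3820 and 2436 reads in the CD200-high libraries, against 25, 30 and 20 reads in those labelled sinusoidal (difference 7.91 ± 0.25, limma adjusted p = 9.3e-09). Vegfa, the main ligand, differed by 0.86 ± 0.49 and did not pass. Among 7 angiopoietin, Tie and apelin genes 4 rose and none fell (1 by voom). The rises were Angpt2, Aplnr, Tek and Tie1, and the median of the list, 4.69, turned to -0.15 on that scale. Among 13 Notch genes 7 rose and 1 fell (0 without CD200-high replicate 1 or 3 or any 1 library labelled sinusoidal), with a median of 3.54 that turned to -1.30 on that scale. Dll4, the Notch ligand of arterial and tip cells, had 1016, 1422 and 676 reads in the CD200-high libraries, against 20, 0 and 2 reads in those labelled sinusoidal (difference 9.43 ± 1.06, limma adjusted p = 5.9e-05). Rbpj, the nuclear partner of cleaved Notch, fell by 0.89 on the log2 scale. The call on Rbpj was lost without CD200-high replicate 1 or 3 or any 1 library labelled sinusoidal (adjusted p = 0.071 to 0.14). A replicate block ended the Rbpj call as well (adjusted p = 0.064). Of 20 BMP and TGF-beta genes 12 rose and none fell, with a median of 2.80 that turned to -2.04 on that scale. Acvrl1, the endothelial BMP receptor ALK1, rose by 4.89 ± 0.69 and its target Id1 by 4.88 ± 0.23. Of 21 guidance genes 14 rose and none fell (1 at an unadjusted p, and 1 without CD200-high replicate 1), with a median of 4.50 that turned to -0.35 on that scale. Sema3f, a secreted repellent, had 165, 399 and 111 reads in the CD200-high libraries, against 0, 0 and 0 reads in those labelled sinusoidal, which puts it at least 136-fold higher.

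Nos3, the endothelial nitric oxide synthase, had 5.09, 6.06 and 6.24 log2 CPM in the CD200-high libraries, against 0.45, 0.30 and -3.04 in those labelled sinusoidal (difference 6.56 ± 0.80, limma adjusted p = 0.00011), with 1 library labelled sinusoidal lying more than 3 log2 units under the other 2. Of 15 nitric oxide and caveola genes 9 rose and 1 fell, with a median of 1.62 that turned to -3.22 with equal pan-endothelial medians. Of 15 genes that restrain immune cells 6 rose and 3 fell (1 without CD200-high replicate 3 or any 1 library labelled sinusoidal), Cd200 itself chosen by the gate. Cd274, which encodes PD-L1, had 3.40, 6.72 and 6.33 log2 CPM in the CD200-high libraries, against 3.90, 3.57 and 3.05 in those labelled sinusoidal, a difference of 1.98 ± 0.83 that did not pass (limma adjusted p = 0.096). Without CD200-high replicate 1 the Cd274 difference was 3.01 (adjusted p = 0.0065). Entpd1, the ectoenzyme CD39, rose by 1.50 ± 0.26, while Lgals9, galectin-9, fell by 2.32 on the log2 scale. The median of the list, 1.02, turned to -3.82 with equal pan-endothelial medians. Of 13 stem cell niche factors 4 rose (2 without sinusoidal replicate 1) and 1 fell (0 without CD200-high replicate 2 or 3 or any 1 library labelled sinusoidal), with a median of 1.65 that turned to -3.19 on the same scale. Kitl, stem cell factor, had 7.32, 7.10 and 8.14 log2 CPM in the CD200-high libraries, against 2.94, 3.64 and 4.40 in those labelled sinusoidal (difference 3.86 ± 0.45, limma adjusted p = 7.6e-05). Cxcl12, the chemokine that keeps stem cells in marrow, rose by 1.49 ± 0.45 over a level of 8.63 ± 0.58 log2 CPM in the libraries labelled sinusoidal. The call on Cxcl12 was lost without CD200-high replicate 2 or 3 or sinusoidal replicate 1 or 2 (adjusted p = 0.054 to 0.11). Ift20, a carrier protein of cilium assembly, had 7.40, 6.85 and 6.56 log2 CPM in the CD200-high libraries, against 5.74, 5.63 and 5.53 in those labelled sinusoidal (difference 1.30 ± 0.25, limma adjusted p = 0.0021). It was the 1 riser among 24 cilium genes, 3 of which fell, beside 14.1% of all genes that rose and 14.6% that fell. Its difference turned negative with equal pan-endothelial medians.

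Of 20 interferon response genes 8 rose and none fell (1 by voom, and 1 without CD200-high replicate 3), with a median of 0.57 that turned to -4.27 with equal pan-endothelial medians. Rsad2, the antiviral enzyme viperin, had 7.13, 7.44 and 7.06 log2 CPM in the CD200-high libraries, against 4.63, 2.26 and 2.76 in those labelled sinusoidal (difference 3.99 ± 0.53, limma adjusted p = 0.00019). Ifitm3, which blocks virus entry, rose by 1.80 ± 0.16. Of 14 MHC class I genes 1 rose (0 without CD200-high replicate 2 or sinusoidal replicate 2) and 6 fell, with B2m, the light chain, at a difference of -0.04. Among all genes 14.1% rose and 14.6% fell. H2-Q7, a nonclassical class I gene, fell by 1.66, and Psmb8, a subunit of the immunoproteasome, by 1.40. Of 10 class II genes none rose and 4 fell (7 without CD200-high replicate 3). H2-Ob, a chain of the peptide-loading modifier of B cells, had 2.31, -1.68 and -0.30 log2 CPM in the CD200-high libraries, against 7.40, 7.39 and 7.50 in those labelled sinusoidal (difference -7.32 ± 1.79, limma adjusted p = 0.01).

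Most cell cycle genes were lower in CD200-high libraries. Of 33 measured, 28 fell and none rose, beside 14.6% of all genes that fell, and the median difference was -2.86. The list took 0.0465, 0.0895 and 0.0582% of reads in the CD200-high libraries, against 0.415, 0.465 and 0.407% in those labelled sinusoidal. Mki67, the proliferation antigen Ki-67, had 5.65, 6.58 and 5.15 log2 CPM in the CD200-high libraries, against 7.77, 8.22 and 8.09 in those labelled sinusoidal (difference -2.24 ± 0.63, limma adjusted p = 0.02). The call on Mki67 was lost without CD200-high replicate 1 or 3 or sinusoidal replicate 2 or 3 (adjusted p = 0.054 to 0.068). Mcm5, a subunit of the replicative helicase, had 2.10, 3.57 and 4.70 log2 CPM in the CD200-high libraries, against 6.92, 7.10 and 7.01 in those labelled sinusoidal (difference -3.55 ± 0.54, limma adjusted p = 0.00052). Rrm2, which makes deoxynucleotides, fell by 2.86 on the log2 scale, and Ccnb2, cyclin B2, by 3.68. B cell precursor and megakaryocyte genes moved in the same direction, as described below, and their part in the cell cycle difference was not tested.

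Promoters of the cell cycle, megakaryocyte, erythroid, B cell precursor and pan-endothelial lists were searched for short motifs. List members were searched whether or not they fell. The window ran from 250 bases before to 50 bases after the start of each gene in the RefSeq table (GRCm38.p6). The first motif was CCAAT, the box bound by NF-Y. The second was TTTGAA, the core of the cell cycle homology element. A GATA site was searched as AGATAA. An ETS site was searched as CCGGAAG. A site of EBF type was searched as CCCNNGGG. Each was sought on both strands, and none contains another. Of 33 cell cycle genes measured, 28 had a promoter sequence there. Of these 28, 23 held CCAAT, which is 82.1%, against 38.6% of the 12108 promoters of measured genes. CCAAT stood also in 69.2% of the 13 erythroid promoters, in 35.7% of the 14 B cell precursor, 27.3% of the 11 megakaryocyte and 22.2% of the 9 pan-endothelial promoters. TTTGAA stood in 46.4% of cell cycle, 27.3% of megakaryocyte, 21.4% of B cell precursor, 15.4% of erythroid and 11.1% of pan-endothelial promoters, against 12.9% of all. AGATAA stood in 36.4% of megakaryocyte, 30.8% of erythroid, 11.1% of pan-endothelial, 7.14% of cell cycle and 7.14% of B cell precursor promoters, against 6.95% of all. CCGGAAG stood in 14.3% of cell cycle and 7.14% of B cell precursor promoters and in none of the other 3 lists, against 16.1% of all. CCCNNGGG stood in 36.4% of megakaryocyte, 30.8% of erythroid, 22.2% of pan-endothelial, 14.3% of B cell precursor and 3.57% of cell cycle promoters, against 17.5% of all. The megakaryocyte list was added to the search after its values were seen. These shares describe letters in a window and were not tested. Shown are 2 cell cycle promoters with both motifs and the 2 megakaryocyte promoters whose AGATAA lies before the start, each 5′ to 3′ on the gene's strand with the motifs in capitals.
Ccnb2, chr9:70421505-70421804, minus strand: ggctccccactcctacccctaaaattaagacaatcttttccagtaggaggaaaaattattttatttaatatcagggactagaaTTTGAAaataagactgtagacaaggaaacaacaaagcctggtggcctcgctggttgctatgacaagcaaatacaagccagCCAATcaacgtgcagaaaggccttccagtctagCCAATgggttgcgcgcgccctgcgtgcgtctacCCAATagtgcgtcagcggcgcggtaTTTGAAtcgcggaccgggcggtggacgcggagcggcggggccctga
Cdc20, chr4:118437294-118437593, minus strand: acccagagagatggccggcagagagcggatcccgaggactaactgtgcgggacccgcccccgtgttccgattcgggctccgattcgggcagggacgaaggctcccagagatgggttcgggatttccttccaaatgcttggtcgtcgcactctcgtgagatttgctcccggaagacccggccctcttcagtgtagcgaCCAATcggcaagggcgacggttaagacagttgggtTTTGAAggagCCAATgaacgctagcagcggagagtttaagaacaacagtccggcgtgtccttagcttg
Gp5, chr16:30310732-30311031, minus strand: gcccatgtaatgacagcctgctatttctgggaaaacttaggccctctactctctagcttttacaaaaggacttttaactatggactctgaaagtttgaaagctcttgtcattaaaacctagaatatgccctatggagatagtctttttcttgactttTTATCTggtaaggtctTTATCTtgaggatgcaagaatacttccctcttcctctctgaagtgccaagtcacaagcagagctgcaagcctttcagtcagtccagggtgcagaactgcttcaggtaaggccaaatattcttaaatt
Gp6, chr7:4397695-4397994, minus strand: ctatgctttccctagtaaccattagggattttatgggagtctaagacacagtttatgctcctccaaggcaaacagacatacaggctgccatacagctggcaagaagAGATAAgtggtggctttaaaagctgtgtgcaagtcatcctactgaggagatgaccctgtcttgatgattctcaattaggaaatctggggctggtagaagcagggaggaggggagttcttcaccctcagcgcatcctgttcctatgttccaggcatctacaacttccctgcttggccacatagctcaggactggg
In Ccnb2 the capitals mark 3 CCAAT boxes at -87, -54 and -21 from the start and TTTGAA at -167 and 5. In Cdc20, whose product activates the anaphase-promoting complex, they mark CCAAT at -53 and -8 and TTTGAA at -18. In Gp5, a subunit of the platelet von Willebrand factor receptor, they mark 2 AGATAA sites on the opposite strand at -93 and -77, and in Gp6, the platelet collagen receptor, 1 at -144. Cdc20 fell by 3.61 and Gp6 by 8.22 on the log2 scale, and Gp5 had no read in any CD200-high library and was at least 101-fold lower. The call on Gp6 was lost without CD200-high replicate 1 or 3 or any 1 library labelled sinusoidal (adjusted p = 0.071 to 0.1). A replicate block ended the Gp6 call as well (adjusted p = 0.052). These 4 genes were chosen after their values were seen.

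B cell precursor genes were far lower in CD200-high libraries. Of 22 measured, 18 fell in CD200-high libraries and none rose, with a median of -5.68, or -5.99 with the 2 genes without CD200-high reads at their bound. The list took 0.0665, 0.0770 and 0.0464% of reads in the CD200-high libraries, against 1.88, 1.82 and 1.69% in those labelled sinusoidal. Igll1 and Vpreb1 encode the surrogate light chain of the pre-B cell receptor. Igll1 had 5.32, 5.83 and 3.23 log2 CPM in the CD200-high libraries, against 11.63, 11.70 and 11.52 in those labelled sinusoidal (difference -6.82 ± 0.73, limma adjusted p = 4.2e-05). Vpreb1 had 2.41, 3.87 and 3.25 log2 CPM in the CD200-high libraries, against 10.97, 11.07 and 10.80 in those labelled sinusoidal (difference -7.77 ± 0.74, limma adjusted p = 1.8e-05). Pax5 and Ebf1, the factors that fix B cell fate, fell by 7.53 and 3.06 on the log2 scale, and Dntt, which adds bases at receptor gene joints, by 8.46. Cells of the B lineage carry CD45, which both gates exclude. Rag1 had no read in any CD200-high library, and nor had Jchain, a plasma cell gene named here after its values were seen, which did not pass. In arterial libraries Igll1 averaged 9.30 ± 0.85 log2 CPM (SD, n = 3), between the 2 populations compared, and in type H libraries 3.08 ± 1.37.

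Megakaryocyte and platelet genes showed the largest shift of any list. Of 14 measured, 13 fell and none rose, with a median of -8.63, or -8.33 with Gp5 at its bound. The list took 0.00942, 0.0165 and 0.00993% of reads in the CD200-high libraries, against 0.709, 0.554 and 0.476% in those labelled sinusoidal. Itga2b, the platelet integrin chain CD41, had 1, 0 and 12 reads in the CD200-high libraries, against 3040, 3108 and 2524 reads in those labelled sinusoidal (difference -9.38 ± 1.78, limma adjusted p = 0.0022). Pf4, platelet factor 4, had 3.13, 4.07 and 4.84 log2 CPM in the CD200-high libraries, against 10.19, 10.31 and 10.15 in those labelled sinusoidal (difference -6.21 ± 0.47, limma adjusted p = 3.2e-06), and Ppbp, another granule chemokine, fell by 7.09 on the log2 scale. Both genes were separated by more than 5 log2 units between the nearest libraries. Of 15 stem and progenitor genes 3 rose and 8 fell. The rises were Cd34, Procr and Mecom, which endothelium also expresses, and Cd34 had 9.45, 9.24 and 9.56 log2 CPM in the CD200-high libraries, against 3.31, 4.53 and 4.76 in those labelled sinusoidal (difference 5.22 ± 0.36, limma adjusted p = 1.9e-06). Myb, a factor of blood progenitors, had -1.27, -0.60 and 3.97 log2 CPM in the CD200-high libraries, against 7.63, 7.64 and 7.65 in those labelled sinusoidal (difference -6.94 ± 1.06, limma adjusted p = 0.00053).

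Erythroid genes were lower in CD200-high libraries, though most did not pass. Of 19 measured, 6 fell (10 without CD200-high replicate 2) and none rose. All 19 differences were negative, with a median of -2.20. Hbb-bs, an adult beta globin whose near-identical copies make its count uncertain, had 9.24, 9.55 and 8.93 log2 CPM in the CD200-high libraries, against 10.31, 9.17 and 9.67 in those labelled sinusoidal, and its difference of -0.48 ± 0.35 did not pass (limma adjusted p = 0.34). Gata1, the factor of erythroid and megakaryocyte fate, had 29, 0 and 0 reads in the CD200-high libraries, against 2012, 2312 and 2240 reads in those labelled sinusoidal (difference -9.10 ± 1.93, limma adjusted p = 0.0044). Slc4a1, the anion exchanger of red cells, fell by 5.49 on the log2 scale. The call on Slc4a1 was lost without CD200-high replicate 1 or 3 or any 1 library labelled sinusoidal (adjusted p = 0.056 to 0.094). Of 17 neutrophil genes limma called none in either direction (0 at an unadjusted p under 0.05, and 0 by voom), and the median was -0.01. Listed reads as the scale gave 1 fall and a replicate block 1, and equal pan-endothelial medians turned all 17 to falls. The list took 0.753, 0.659 and 1.11% of reads in the CD200-high libraries, against 0.795, 0.726 and 1.26% in those labelled sinusoidal. S100a8, a calcium-binding protein of neutrophils, had 10.90, 10.29 and 11.33 log2 CPM in the CD200-high libraries, against 10.61, 10.08 and 11.03 in those labelled sinusoidal, and the ranges overlapped. Of 17 macrophage genes 1 rose (2 without sinusoidal replicate 3) and 1 fell (0 without CD200-high replicate 2 or sinusoidal replicate 1 or 2). Mertk, a receptor for dying cells, rose by 6.42 ± 1.07, Cd68, a lysosomal protein, fell by 3.51 on the log2 scale, and Csf1r, the receptor for macrophage growth factor, differed by -0.10 ± 0.58 and did not pass. The call on Cd68 was lost without CD200-high replicate 1 or 2 or any 1 library labelled sinusoidal (adjusted p = 0.056 to 0.1), and without CD200-high replicate 2 its difference was -1.84. Of 9 T and NK cell genes 3 fell, Klrb1c, Cd2 and Lat, the last of which platelets also use.

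**Figure D3:**
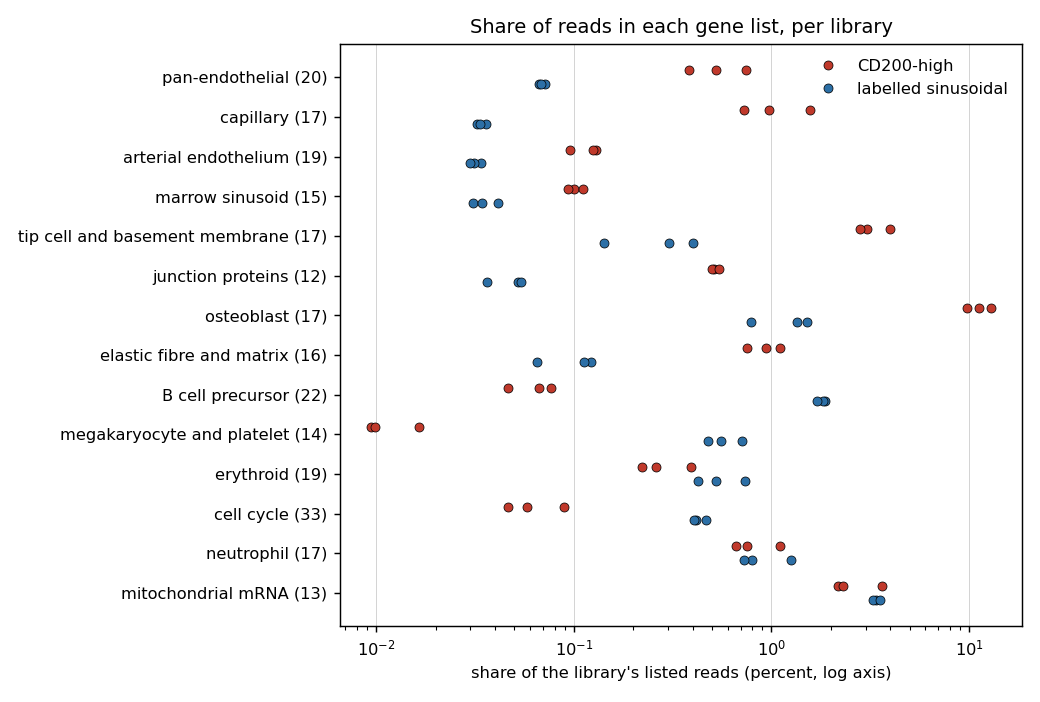
Share of each library's listed reads (percent, log axis) taken by 14 gene lists, with the number of genes measured in brackets; each point is 1 library, CD200-high in red above labelled sinusoidal in blue. Capillary and osteoblast shares are higher in all 3 CD200-high libraries, B cell precursor and megakaryocyte shares in all 3 labelled sinusoidal, and neutrophil shares overlap.

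Bone-forming cell genes took the largest share of reads of any list in CD200-high libraries. Of 17 osteoblast genes 13 rose (8 without sinusoidal replicate 2) and none fell, with a median of 3.38 that turned to -1.46 with equal pan-endothelial medians. The list took 12.97, 11.2 and 9.76% of reads in the CD200-high libraries, against 1.51, 0.786 and 1.34% in those labelled sinusoidal. Bglap, osteocalcin, alone took 3.31% ± 0.332 of reads in CD200-high libraries and 0.296% ± 0.0914 in those labelled sinusoidal (SD, n = 3 each), and its near-identical copy Bglap2 makes the split between them uncertain. Col1a1 and Col1a2, the chains of bone collagen, rose by 3.38 ± 0.61 and 3.74 ± 0.41. Spp1, osteopontin, took 0.608% ± 0.242 of reads in CD200-high libraries and 0.125% ± 0.0176 in those labelled sinusoidal (SD, n = 3 each), and Ibsp, bone sialoprotein, rose by 2.86 ± 0.59. Sp7, the osteoblast factor osterix, had 10.26, 9.30 and 8.50 log2 CPM in the CD200-high libraries, against 6.05, 4.87 and 6.34 in those labelled sinusoidal, with no overlap, but the difference of 3.60 ± 1.62 did not pass against the spread over the 12 libraries (limma adjusted p = 0.12). Fgf23, the bone hormone of phosphate loss, showed a difference of -0.47 ± 1.35 that did not pass. The part of bone cells in the matrix genes was not tested. Of 16 elastic fibre and matrix genes 10 rose and none fell (1 at an unadjusted p), with a median of 2.88 that turned to -1.97 on the pan-endothelial scale. Dcn, decorin of connective tissue, rose by 3.95 ± 0.96 and averaged 1.44 ± 2.57 log2 CPM in type H libraries. Sparc, a matrix protein of bone and of vessels, took 3.005% ± 0.655 of reads in CD200-high libraries and 0.272% ± 0.133 in those labelled sinusoidal (SD, n = 3 each).

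Of 15 reticular stroma and adipocyte genes 6 rose and 1 fell, with a median of 1.53 that turned to -3.31 with equal pan-endothelial medians. Differences in this list ran from -6.79 to 7.44, so its members moved in both directions. Adipoq, adiponectin, which marks the reticular cells of mouse marrow, was the fall, with -2.11, -2.53 and -1.44 log2 CPM in the CD200-high libraries, against 4.19, 4.49 and 5.60 in those labelled sinusoidal (difference -6.79 ± 0.51, limma adjusted p = 3.3e-06). Pdgfra, a growth factor receptor of stromal cells, rose by 3.83 ± 0.56, and Lepr, the leptin receptor of reticular cells, differed by -0.77 ± 0.55 and did not pass. Of 12 mural genes 3 rose and 1 fell (0 without CD200-high replicate 1 or sinusoidal replicate 1 or 2). Over all genes 14.1% rose and 14.6% fell. Kcnj8 and Abcc9, the channel subunits known from pericytes, rose by 3.93 ± 0.58 and 3.39 ± 0.48, and both averaged higher still in type H libraries, at 10.59 ± 0.11 and 10.06 ± 0.27 log2 CPM. Acta2, the smooth muscle actin, differed by 0.16 ± 1.51 and did not pass. Directions of the rises in these lists hold on the authors' scale and turn round with equal pan-endothelial medians for members that rose by under 4.84.

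**Figure D4:**
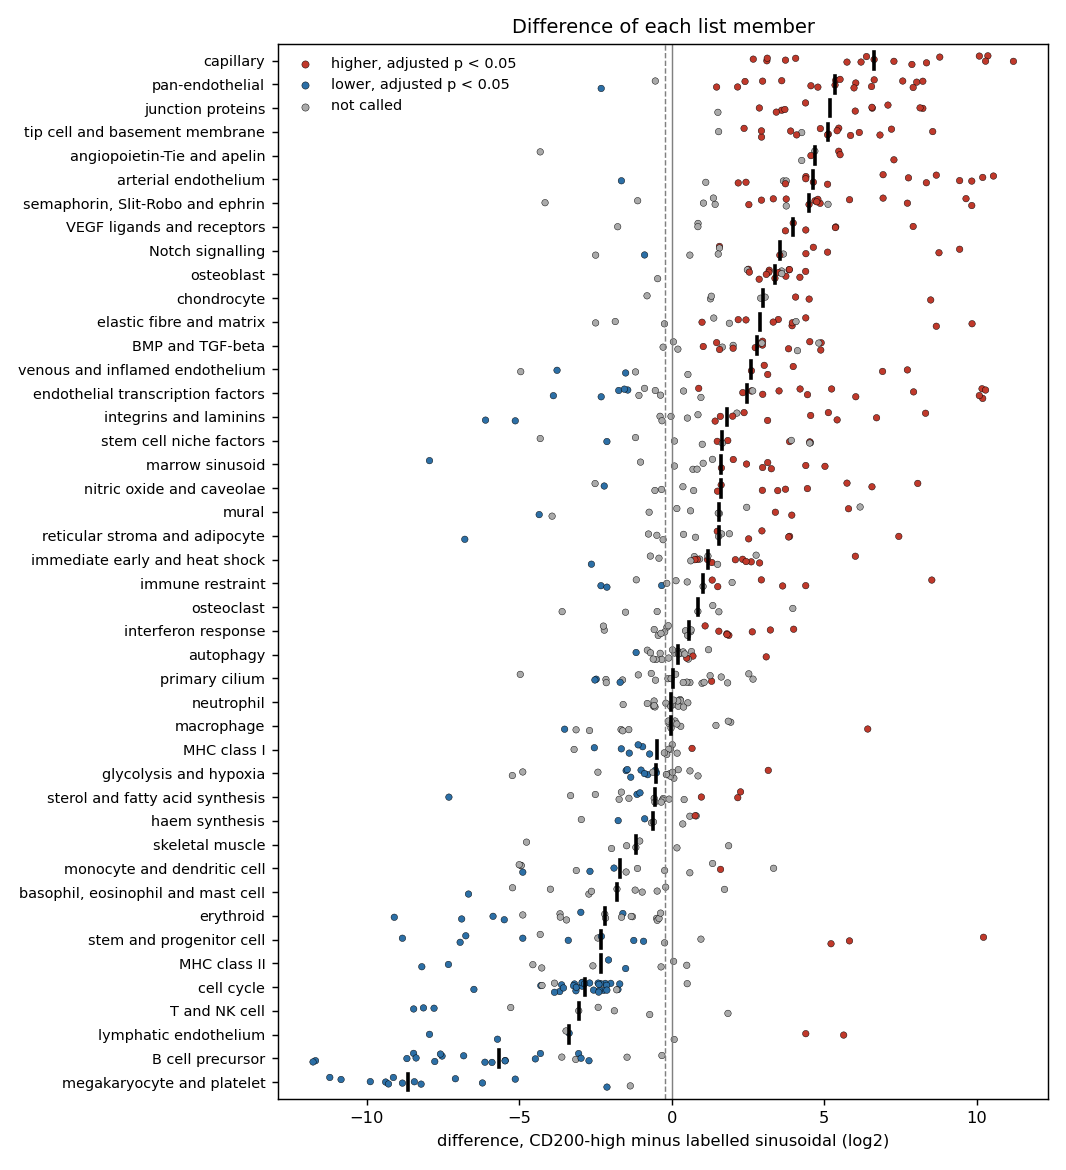
Difference of each list member (log2, CD200-high minus labelled sinusoidal), with lists of 7 or more genes ordered by their median (black bar); red points rose, blue points fell and grey points did not pass, and the dashed line is the median of all genes at -0.22. Capillary genes lie wholly to the right, megakaryocyte genes wholly to the left and neutrophil genes around 0.

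Of 21 autophagy genes 3 rose (5 without CD200-high replicate 2) and 1 fell (0 without sinusoidal replicate 1 or 2, 3 without CD200-high replicate 3), and of 18 genes of sterol and fatty acid synthesis 3 rose and 3 fell. Shares over all genes were 14.1% for rises and 14.6% for falls, and the rises of both lists lie near that share. Of 9 haem synthesis genes 1 rose (0 without CD200-high replicate 1 or 3 or sinusoidal replicate 1 or 2) and 2 fell (1 without CD200-high replicate 2 or 3 or any 1 library labelled sinusoidal). Of 14 monocyte and dendritic cell genes 1 rose (2 without CD200-high replicate 2) and 3 fell (1 without CD200-high replicate 2 or sinusoidal replicate 2 or 3), among them Flt3, a growth factor receptor of early progenitors, by 4.89 on the log2 scale. The call on Flt3 was lost without any 1 CD200-high library or sinusoidal replicate 2 or 3 (adjusted p = 0.054 to 0.1). Of 11 basophil, eosinophil and mast cell genes 1 fell (0 without CD200-high replicate 1 or 2 or sinusoidal replicate 1 or 3, 2 without CD200-high replicate 3 or sinusoidal replicate 2). Of 8 cartilage genes 3 rose, and of 5 Schwann cell and neural genes 2 fell (1 without any 1 library labelled sinusoidal) and none rose (1 by voom). Limma called none of 7 osteoclast genes (1 at an unadjusted p under 0.05, and 1 by voom) and none of 7 skeletal muscle genes (1, and 1 by voom).

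The genes with the largest shares of reads included several of the lists above. In the libraries labelled sinusoidal Igll1 was among the 12 genes with the most reads, outside mitochondrial and ribosomal protein genes, and it took 0.00315% ± 0.00216 of reads in CD200-high libraries and 0.349% ± 0.0275 in those labelled sinusoidal (SD, n = 3 each). Ubb, polyubiquitin, led that population and took 0.752% ± 0.0511 of reads in CD200-high libraries and 0.716% ± 0.0995 in those labelled sinusoidal (SD, n = 3 each). Ubb passed as a rise. That call was lost with only the 6 libraries, without the trend and with listed reads as the scale. Quantile normalization turned the Ubb difference negative. Bglap, Sparc, Bglap2, Col1a2 and Col1a1 led the CD200-high libraries. Immediate early and heat shock genes, which dissociation of tissue can induce, were higher in CD200-high libraries: 10 of 19 rose and 1 fell (0 without CD200-high replicate 1 or 2 or sinusoidal replicate 1 or 3), with a median of 1.18 that turned to -3.66 with equal pan-endothelial medians. Fos, an early transcription factor, had 10.89, 11.10 and 10.91 log2 CPM in the CD200-high libraries, against 8.82, 8.19 and 8.95 in those labelled sinusoidal (difference 2.32 ± 0.22, limma adjusted p = 1.6e-05). The part of the sort in these values was not tested. Mitochondrial mRNA took 2.18, 2.31 and 3.62% of reads in the CD200-high libraries, against 3.38, 3.26 and 3.52% in those labelled sinusoidal, and limma called none of its 13 genes (1 at an unadjusted p under 0.05, and 0 by voom). The count of its falls was 7 with quantile normalization, where its median was -0.73, 2 with listed reads as the scale, 1 with a replicate block and 2 without CD200-high replicate 3. Of 22 glycolysis and hypoxia genes 1 rose and 8 fell (4 without sinusoidal replicate 3). Ldha, lactate dehydrogenase, had 9.23, 9.40 and 9.06 log2 CPM in the CD200-high libraries, against 9.74, 9.90 and 9.66 in those labelled sinusoidal (difference -0.54 ± 0.12, limma adjusted p = 0.0056), and Adm, adrenomedullin, whose receptor partner Ramp3 is described above, was the rise, by 3.16 ± 0.71.

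**Figure D5:**
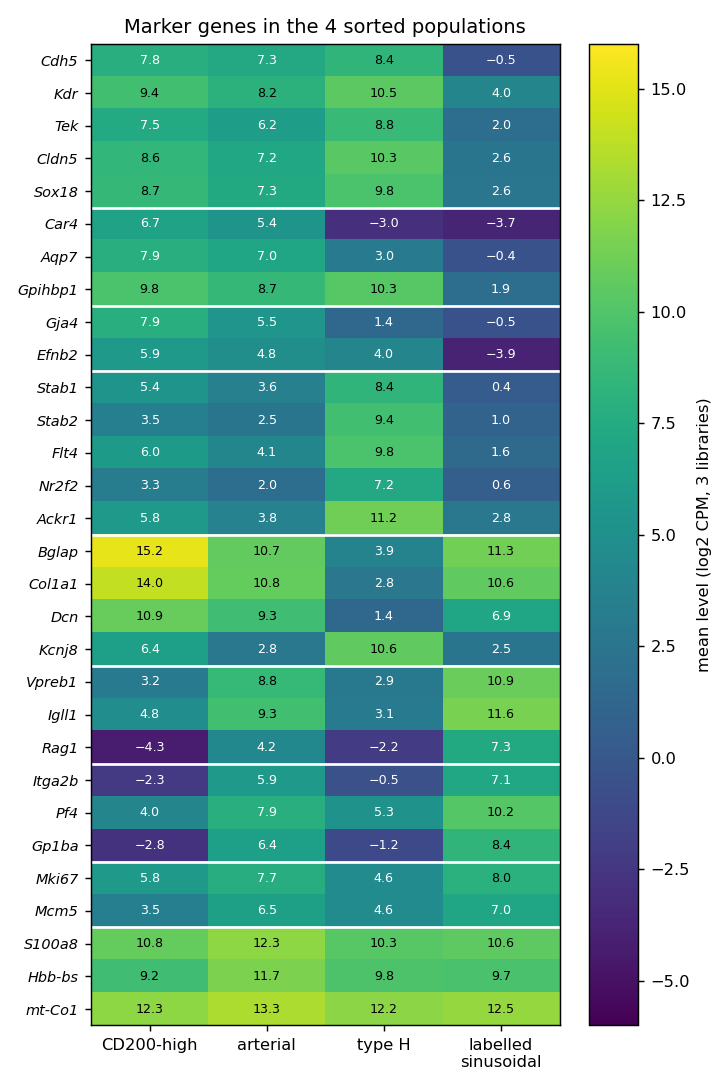
Mean level (log2 CPM, 3 libraries) of 30 marker genes in the 4 sorted populations, with endothelial, capillary, arterial, sinusoidal and venous, bone and stromal, B cell precursor, megakaryocyte, cell cycle and other genes as blocks from top to bottom. Endothelial genes are dark in the column labelled sinusoidal, B cell precursor and megakaryocyte genes are bright there, and Stab2, Flt4 and Ackr1 are brightest in type H.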

How the data were processed

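RNA of sorted mouse bone marrow cells was sequenced as 12 libraries, 3 for each of 4 populations. The authors deposited 1 table of log2 CPM for 17362 genes. The submitters' processing notes list R 4.3, featureCounts, STAR, Trimmomatic, deepTools and SAMtools, and hg38, a human build, although the gene symbols are those of mouse; the annotation and whether counting used strand are not given in the sources used here, so overlapping, antisense and near-identical genes may share reads. Per the labels' protocols, cDNA was made with an ultra-low input kit, whose amplification is not corrected by molecular identifiers. Each value is log2 of reads plus 0.5 per 1e6 reads of an effective library size: reading the values this way gave whole reads for every gene and library within 0.01. Effective sizes are the listed reads times a factor that differs by library. The factor was 0.85 to 0.92 in CD200-high libraries and 1.08 to 1.14 in those labelled sinusoidal, so it divides the 2 populations compared.

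Differences were tested with limma 3.58.1 in R 4.3.3 (group means of 12 libraries, mean-variance trend) on genes with at least 10 reads at the mean effective size in at least 3 libraries; 276 genes were left out. P-values were adjusted over 17086 genes. The deposited columns are headed mouse1 to mouse3 in each population. Nothing in the labels states that a number marks the same mouse across populations. Same-numbered deviations correlated at -2.5e-05, -0.012 and -0.0048 over 11781 genes, and the numbers were not taken as pairs. Genes named are the sorting antigens, Ift20 and Nos3, the 12 largest rises and falls (values not overlapping, at least 100 reads in the higher population), the 12 most abundant genes of each population, and from each of 46 gene lists (639 genes in the table) preset members and up to 4 others of smallest p; genes outside this are said to be chosen after their values were seen. Members and lists were chosen with earlier results of these data known. Folds against a population without reads use a floor of 3 reads per library. Other scalings, filters, pseudocounts, sample sets, variance models, a fold minimum, a replicate block and each library left out were tried as alternatives.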

Additional observations from a re-analysis of the deposited data

How the results depend on the processing

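Beside the 4902 genes called, a fit with equal pan-endothelial medians called 14494 (159 rises and 14335 falls) and a limma fold minimum of 1 (log2) called 2105 (1176 rises and 929 falls). Over the other alternatives that kept all 6 libraries the count of calls was 4308 to 5626, with 1997 to 2610 rises and 2110 to 3629 falls. Leaving out 1 library in turn gave 3499 to 4582 calls, 1869 to 2129 rises and 1630 to 2453 falls, the low counts of falls coming without a library labelled sinusoidal. With the replicate number as a replicate block 4751 (2354 rises and 2397 falls) were called, and among the 150 genes named the block ended the calls on Gp6 and Rbpj. The block moved no other call of a named gene, and it moved 10 of the counts of list members by over 1.5 times.

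Under equal pan-endothelial medians the difference changed sign for Abcc9 (-1.45), Ackr1 (-1.81), Acta2 (-4.68), Adm (-1.68), Bglap (-0.998), Bglap2 (-0.99), Cd200 (-0.45), Cd274 (-2.87), Col1a1 (-1.46), Col1a2 (-1.10), Cxcl12 (-3.35), Dcn (-0.89), Entpd1 (-3.34), Flt4 (-0.45), Fos (-2.52), Ibsp (-1.98), Ifitm3 (-3.04), Ift20 (-3.54), Kcnj8 (-0.91), Kitl (-0.98), Klf2 (-1.33), Klf4 (-1.86), Nr2f2 (-2.23), Nrp2 (-0.86), Pdgfra (-1.01), Pecam1 (-2.69), Prox1 (-4.76), Rsad2 (-0.85), S100a8 (-4.57), Sparc (-0.95), Spp1 (-2.33), Stab2 (-2.39), Tie1 (-0.28), Ubb (-4.45), Vcam1 (-4.76), Vegfa (-3.98) and Vegfc (-1.12). Quantile normalization turned the difference of Ubb to -1.02. The cause was not tested. The calls on Cd68, Itga4, Nr2f2, Ptprc, Rbpj, Selp, Slc4a1, Stab2 and Ubb were lost with only the 6 libraries in the fit, those on Cd68, Cxcl12, Foxo1, Gp6, Itga4, Ldha, Ptprc, Rbpj and Ubb without the trend, those on Adm, Cxcl12, Plvap, Prg4, Rbpj, Slc4a1 and Stab2 by voom on the recovered reads, those on Cxcl12 and Ubb with listed reads as the scale and those on Bglap, Cxcl12 and Flt3 with quantile normalization. The fold minimum ended 21 of the calls on named genes, equal pan-endothelial medians 14 and a pseudocount of 10 ended 2. Sp7 and Vwf passed with a pseudocount of 1 or 10 and by voom. No filter, the filter at 50 reads and array weights ended no call of a named gene. Depth was lowest in CD200-high replicate 3.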

Other observations

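Neutrophil genes took 0.753, 0.659 and 1.11% of reads in CD200-high replicates 1, 2 and 3, against 0.795, 0.726 and 1.26% in sinusoidal replicates 1, 2 and 3, so the order of the replicates was the same in both populations although same-numbered libraries did not deviate together over all genes. With 3 libraries a population this was not tested.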
